A study of Mus musculus with 6 samples.

Results

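Glucocorticoid-responsive genes were examined in purified heart muscle cells of mice given GFP, XBP1S or ATF6N by an adeno-associated virus (AAV) vector. The 7 genes were taken by name from the table of 23337 genes, and all 7 passed the filter that left 14587 genes to be tested. They are Nr3c1 and Nr3c2, which encode the glucocorticoid and the mineralocorticoid receptor, and Fkbp5, Zbtb16, Per1, Tsc22d3 and Sgk1, which are known targets of those receptors. The set was put together because Zbtb16 was lower in the AAV-XBP1S libraries and not in the others. The values of Zbtb16 in all comparisons, and of the other 6 in the comparisons with AAV-XBP1S, are therefore descriptions without a test.

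All mice were wild type and were injected at postnatal day 1, and their cardiomyocytes were isolated at 4 weeks of age by perfusing the heart with enzymes and sorted by fluorescence. The groups were AAV-GFP, the control vector, AAV-XBP1S and AAV-ATF6N, with 2 libraries each. The sample labels write the treatments as AAV-XBP1 and AAV-ATF6. Both factors act in the unfolded protein response: by common usage XBP1S denotes XBP1 made from the spliced message, and ATF6N the part of ATF6 that enters the nucleus. The sources used here do not give the promoter in the vectors, the sex of the mice or whether animals were pooled. Nothing says that the libraries of a group came from separate animals, so the p-values cover the spread among the libraries alone, which may be technical.

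Glucocorticoids such as corticosterone cross the cell membrane and bind the glucocorticoid receptor, which waits in the cytosol in a complex with HSP90 chaperones. The hormone-bound receptor moves to the nucleus, binds glucocorticoid response elements (GREs) as a dimer and switches on genes such as Tsc22d3 and Fkbp5. It also restrains inflammatory genes, in large part by acting on NF-kB and AP-1. Heart muscle cells express both receptors, and the mineralocorticoid receptor in these cells can bind corticosterone as well.

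Total counts ran from 67702482 to 112049342 per library. The first principal component of log2(CPM + 1), over tested genes with a mean of at least 5 CPM, held 61.9% of the variance, with AAV-GFP replicate 1 at its far end, and Rn45s, the ribosomal RNA precursor, took 0.337% of its counts and 0.130% of those of AAV-XBP1S replicate 1, against 0.0319% to 0.0416% in the other 4. Markers of cardiomyocytes (12 genes) summed to 98458 to 108381 CPM in AAV-XBP1S, 123619 to 128344 in AAV-GFP and 147447 to 149785 in AAV-ATF6N. The higher sum in AAV-ATF6N came with Myh6, at means of 32053 CPM in AAV-GFP, 35372 in AAV-XBP1S and 65813 in AAV-ATF6N. Against AAV-GFP, 5 of the 12 lay above 0 and 7 below in AAV-ATF6N, with a median log2 fold change of -0.09. In AAV-XBP1S 2 lay above and 10 below, with a median of -0.39. CPM are counts scaled to a common library size after TMM normalization. Endothelial markers (10 genes) summed to 607 to 872 CPM in AAV-GFP, 977 to 1329 in AAV-XBP1S and 544 to 596 in AAV-ATF6N, and fibroblast markers (10 genes) to 555 to 700 CPM, 897 to 1043 and 875 to 918. Markers of macrophages and leukocytes (10 genes) summed to 40.0 to 41.0, 52.0 to 61.9 and 54.5 to 55.1 CPM in that order. The smooth muscle and pericyte list, which holds Des, a gene that cardiomyocytes express too, came to 3627 to 3767, 2870 to 2980 and 3759 to 3836 CPM. The lower sum in AAV-XBP1S came with Des (log2 fold change over AAV-GFP -0.59, SE 0.18). There 9 of the 10 genes lay above 0, with a median of 0.51. Of the erythroid list the alpha globin genes Hba-a1 and Hba-a2 were at 0 in all 6 libraries, and the list summed to 131 to 277, 70.5 to 106 and 41.0 to 42.1 CPM. The row matched to the beta globin gene Hbb-bs had means of 191, 81.4 and 37.55 CPM. Why the alpha globin genes had no counts was not tested.

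Sex-linked transcripts differed between the groups. The Y-linked genes Ddx3y, Eif2s3y, Kdm5d and Uty together had 3114 and 3068 counts in AAV-GFP, 2 and 0 in AAV-XBP1S, with 15061 and 11415 in AAV-ATF6N. Xist, which is transcribed from the inactive X chromosome, had 24.6 and 7.88 CPM in AAV-GFP, 43.1 and 20.2 in AAV-XBP1S, with 0.197 and 0.0919 in AAV-ATF6N. AAV-GFP libraries thus held both kinds of transcript, AAV-XBP1S libraries Xist with almost no Y-linked count, and AAV-ATF6N libraries Y-linked transcripts with little Xist. In every comparison below, the delivered factor and what goes with these transcripts cannot be told apart. Likewise, fewer cells of a type and less RNA per cell cannot be told apart in bulk samples.

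**Figure D1:**
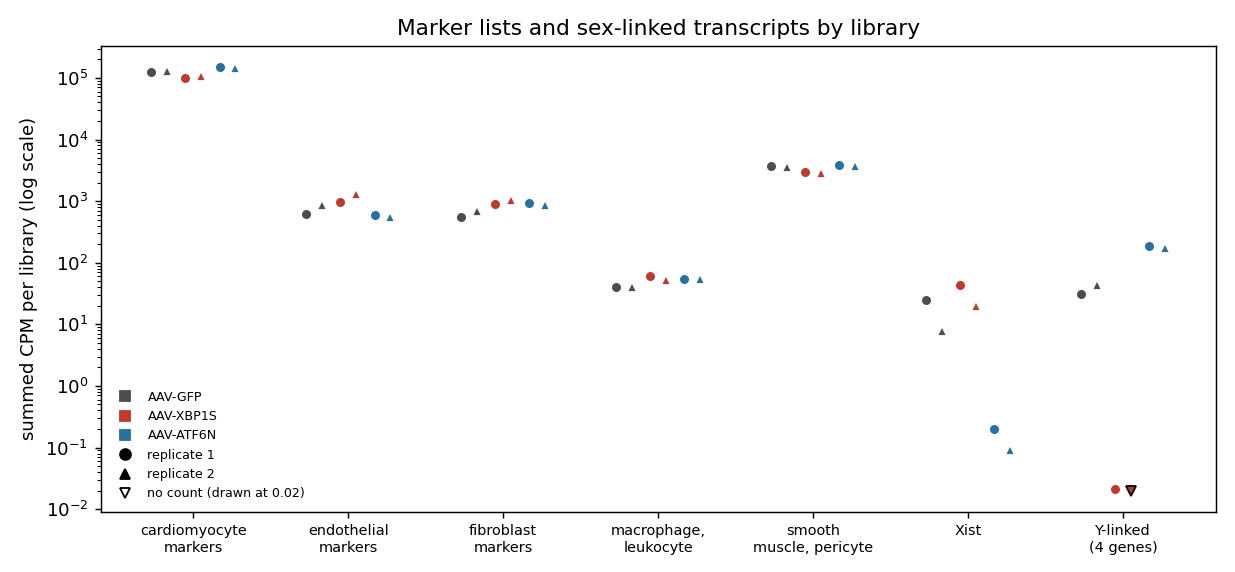
Summed CPM per library (log scale) of 5 lists of cell type markers, of Xist and of 4 Y-linked genes, coloured by group, with replicate 1 as circles and replicate 2 as triangles. AAV-XBP1S has the highest endothelial sums (977 and 1329 CPM) and 2 and 0 counts of the Y-linked genes.

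The promoter windows of the target genes are shown first, because these genes are grouped by a shared regulator while their levels differed in direction. RefSeq start sites were found for 5 of the 7 genes (Fkbp5, Nr3c2, Per1, Sgk1 and Tsc22d3), with 13 windows of 250 bases before to 50 after a start, on build GRCm38.p6, the build also called mm10. A full GRE was searched as the arms AGAACA and TGTTCT with any 3 bases between them, its core as ACANNNTGT and a single arm as AGAACA, and the clock element, the E-box, as CACGTG, all on both strands. The full GRE was found in 3 of 32851 windows of all genes (0.00913%), and 1 of these windows belongs to Sgk1. That match, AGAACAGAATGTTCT, lies 189 bases before a start site of Sgk1 at chr10:21993701-21993715, inside an intron of the longer gene model of the count table. The core was found in 6.85% of all windows and in 2 of the 13, both of Sgk1. The arm was found in 19.0% of all windows and in 4 of the 13 (3 of Sgk1, 1 of Tsc22d3). More of the 13 windows belong to Sgk1 than to any other gene, so Sgk1 had the most places for a match. The E-box was found in 7.15% of all windows and in 3 of the 13, namely those of Fkbp5, Per1 and the Sgk1 start that has the full GRE, where it overlaps a GRE arm. Elements of the unfolded protein response, searched as TGACGTGG and as CCAAT and CCACG with any 9 bases between them, and the cyclic AMP element TGACGTCA were in none of the 13 windows, and in 0.676%, 0.119% and 1.79% of all windows. A match is a description of letters in these windows and does not show a bound site. The windows with a match that belong to Sgk1 (the one with the full GRE), Tsc22d3, Fkbp5 and Per1 follow, 5′ to 3′ on the strand of the gene, with the matches in capitals.
Sgk1, chr10:21993640-21993939, plus strand: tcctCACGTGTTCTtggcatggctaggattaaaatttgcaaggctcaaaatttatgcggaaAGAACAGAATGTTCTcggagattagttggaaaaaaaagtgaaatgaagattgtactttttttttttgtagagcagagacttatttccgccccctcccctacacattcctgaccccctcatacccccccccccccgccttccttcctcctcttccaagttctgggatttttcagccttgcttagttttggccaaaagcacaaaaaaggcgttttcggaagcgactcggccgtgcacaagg
Tsc22d3, chrX:140600473-140600772, minus strand: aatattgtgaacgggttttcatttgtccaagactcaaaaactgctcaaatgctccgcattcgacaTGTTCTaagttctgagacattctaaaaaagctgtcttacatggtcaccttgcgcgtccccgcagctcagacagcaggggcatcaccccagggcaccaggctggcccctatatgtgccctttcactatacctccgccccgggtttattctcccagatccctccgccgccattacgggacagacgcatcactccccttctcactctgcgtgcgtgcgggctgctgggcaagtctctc
Fkbp5, chr17:28486100-28486399, minus strand: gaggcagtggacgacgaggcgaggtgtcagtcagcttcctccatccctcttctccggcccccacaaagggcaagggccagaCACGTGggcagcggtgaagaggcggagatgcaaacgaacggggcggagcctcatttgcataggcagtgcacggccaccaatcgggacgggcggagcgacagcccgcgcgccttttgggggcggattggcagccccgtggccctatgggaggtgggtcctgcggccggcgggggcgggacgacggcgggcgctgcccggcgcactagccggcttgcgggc
Per1, chr11:69098699-69098998, plus strand: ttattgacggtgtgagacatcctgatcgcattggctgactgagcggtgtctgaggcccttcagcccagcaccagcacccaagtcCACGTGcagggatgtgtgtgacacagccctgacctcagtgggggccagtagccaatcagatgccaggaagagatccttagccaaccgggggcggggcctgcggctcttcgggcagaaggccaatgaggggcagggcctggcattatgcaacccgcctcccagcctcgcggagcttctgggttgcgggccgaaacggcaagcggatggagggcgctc
The capitals mark a GRE arm in Tsc22d3, an E-box in Fkbp5 and Per1, and in Sgk1 an E-box overlapping an arm, followed by the full GRE.

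Of the receptor genes, Nr3c1 varied little over the 6 libraries and Nr3c2 varied more. Nr3c1 (chromosome 18, 39410545 to 39487245, minus strand), the glucocorticoid receptor, had 81.5 and 74.3 CPM in AAV-GFP, 82.2 and 92.5 in AAV-XBP1S, with 81.1 and 77.4 in AAV-ATF6N. Both AAV-XBP1S libraries lay above both AAV-GFP libraries, by a small margin, and the AAV-ATF6N values lay among those of AAV-GFP. The log2 fold change was 0.17 (SE 0.19) for AAV-XBP1S and 0.03 (SE 0.19, edgeR adjusted p = 0.950) for AAV-ATF6N, each over AAV-GFP. Nr3c2 (chromosome 8, 76902508 to 77243639, plus strand), the mineralocorticoid receptor, had 6.45 and 12.9 CPM in AAV-GFP, 7.67 and 11.8 in AAV-XBP1S, with 15.3 and 16.2 in AAV-ATF6N. The low values in AAV-GFP and AAV-XBP1S were those of the libraries with the most Rn45s, and the part of that in this result was not tested. Both AAV-ATF6N libraries lay above the other 4, with a log2 fold change over AAV-GFP of 0.70 (SE 0.38, edgeR adjusted p = 0.407) and over AAV-XBP1S of 0.69 (SE 0.38). Without AAV-GFP replicate 2, which leaves the lower control library alone, it was 1.30 with an edgeR adjusted p of 0.0432, in a fit that called 3055 of all genes instead of 75, and without AAV-GFP replicate 1 it was 0.29. In AAV-XBP1S the change in Nr3c2 was 0.01 (SE 0.38), with 0.63 without AAV-GFP replicate 2 and -0.41 without AAV-GFP replicate 1.

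Fkbp5 stood lower in AAV-XBP1S, and higher in AAV-ATF6N, than in AAV-GFP. It encodes FKBP51, a co-chaperone in the HSP90 complex that lowers the hormone affinity of the receptor and is itself induced by it (chromosome 17, 28399095 to 28486112, minus strand). Its level was 9.96 and 14.6 CPM in AAV-GFP, 5.48 and 8.12 in AAV-XBP1S, with 21.9 and 20.2 in AAV-ATF6N. The groups did not overlap: every AAV-XBP1S library lay below, and every AAV-ATF6N library above, both AAV-GFP libraries. Against AAV-GFP, the log2 fold change was -0.85 (SE 0.30) for AAV-XBP1S, a 1.81-fold lower mean, and 0.78 (SE 0.30, edgeR adjusted p = 0.351) for AAV-ATF6N, a 1.71-fold higher mean that did not pass the test. Between the treated groups the mean was 3.10-fold higher in AAV-ATF6N (log2 fold change 1.63, SE 0.30). With 1 library left out, the change in AAV-ATF6N ran from 0.53 (without AAV-GFP replicate 1) to 1.09 (without AAV-GFP replicate 2), and that in AAV-XBP1S from -1.16 (without AAV-XBP1S replicate 2) to -0.51 (without AAV-GFP replicate 2). The comparisons against AAV-GFP share the control libraries, so a high or low control moves both.

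Zbtb16, which encodes the transcription factor PLZF with a BTB domain and zinc fingers, was lower in AAV-XBP1S than in either other group (chromosome 9, 48654297 to 48835945, minus strand). It had 61.3 and 51.0 CPM in AAV-GFP, 13.0 and 13.9 in AAV-XBP1S, with 73.0 and 58.8 in AAV-ATF6N. The AAV-XBP1S values lay far below the other 4 libraries and close to each other, while AAV-ATF6N overlapped AAV-GFP. Group means were 56.2 ± 7.30 (SD, n = 2), 13.4 ± 0.629 and 65.9 ± 10.03 CPM. The log2 fold change was -2.06 (SE 0.22) for AAV-XBP1S and 0.23 (SE 0.21) for AAV-ATF6N over AAV-GFP, and 2.30 (SE 0.22) in AAV-ATF6N over AAV-XBP1S. Of all genes tested, 0.816% had a lower log2 fold change than Zbtb16 in AAV-XBP1S against AAV-GFP. Under 11 other settings it ran from -2.16 to -1.93 in that comparison. The authors' deposited table gives Zbtb16 a log2 fold change of -2.07 in AAV-XBP1S and 0.24 in AAV-ATF6N. These values chose the gene and support nothing beyond it.

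Per1 encodes a repressor of the circadian clock and is known to have both clock and glucocorticoid elements (chromosome 11, 69098956 to 69109957, plus strand). Of the elements searched in the promoter windows above, Per1 had only the E-box. Its level was 27.0 and 16.8 CPM in AAV-GFP, 15.2 and 11.6 in AAV-XBP1S, with a mean of 16.6 ± 0.780 (SD, n = 2) in AAV-ATF6N, whose higher library had 17.1. The AAV-XBP1S libraries were the lowest, and AAV-GFP replicate 1, the library with the most Rn45s, the highest. Against AAV-GFP, the log2 fold change was -0.71 (SE 0.29) for AAV-XBP1S and -0.41 (SE 0.29, edgeR adjusted p = 0.478) for AAV-ATF6N. Without AAV-GFP replicate 1 these were -0.34 and -0.03.

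Tsc22d3 and Sgk1, both fast targets of the receptors, differed in sign in AAV-XBP1S. Tsc22d3 encodes GILZ, a leucine zipper protein that mediates anti-inflammatory effects of glucocorticoids (chromosome X, 140539529 to 140600522, minus strand). It had 172 and 184 CPM in AAV-GFP, 109.5 and 141 in AAV-XBP1S, with 161 and 171 in AAV-ATF6N. Both AAV-XBP1S libraries lay below the other 4, and those of AAV-ATF6N lay just under AAV-GFP, with means of 166 ± 6.89 and 178 ± 8.68 CPM. The log2 fold change was -0.51 (SE 0.21) in AAV-XBP1S, or -0.29 without its replicate 1, and -0.10 (SE 0.20, edgeR adjusted p = 0.815) in AAV-ATF6N. Sgk1 encodes a kinase that regulates ion channels and transporters (chromosome 10, 21882184 to 21999902, plus strand). It had 84.4 and 118.6 CPM in AAV-GFP, 112 and 151 in AAV-XBP1S, with 104 and 102 in AAV-ATF6N. The groups overlapped against AAV-GFP, and AAV-XBP1S held the library with the most Sgk1. The log2 fold change was 0.37 (SE 0.25) in AAV-XBP1S, from 0.15 without AAV-GFP replicate 1 to 0.68 without AAV-GFP replicate 2, and 0.02 (SE 0.25, edgeR adjusted p = 0.976) in AAV-ATF6N. Counts per gene add all start sites of Sgk1 and of Tsc22d3, so the start with the full GRE cannot be seen apart from the others.

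**Figure D2:**
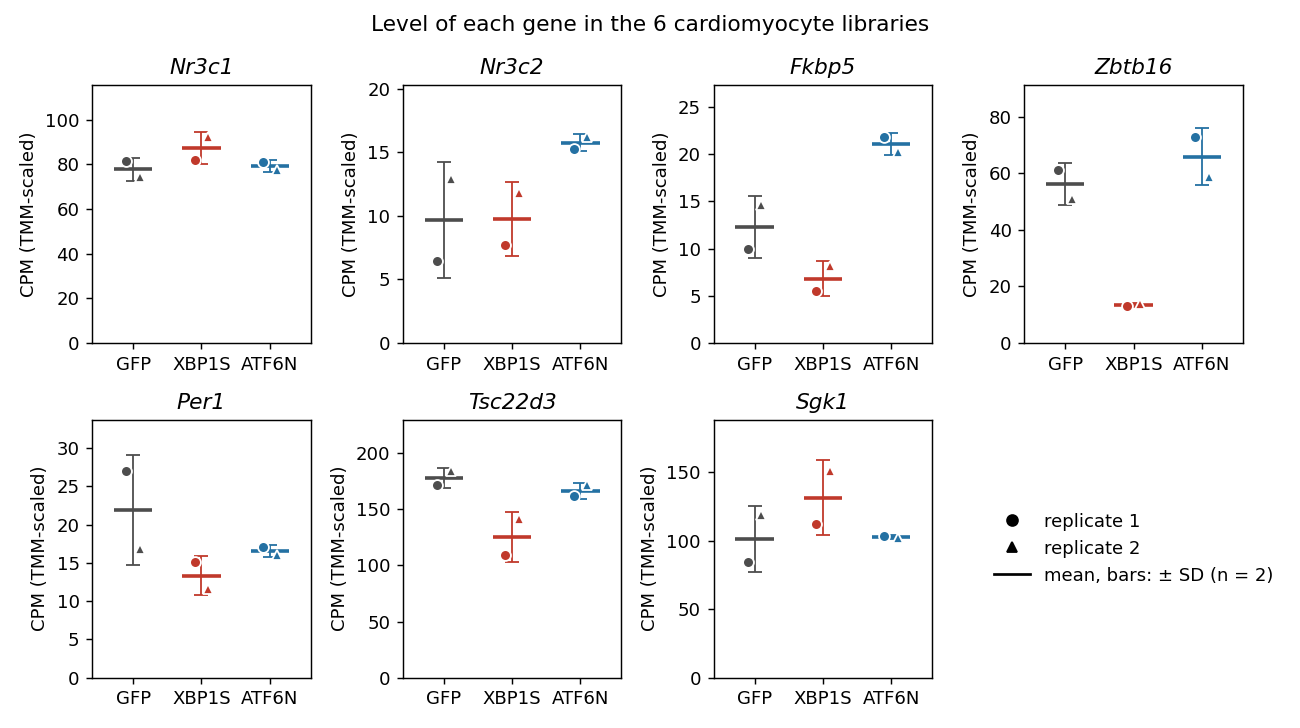
CPM of each gene in the 6 libraries by group, with points for replicates 1 and 2, a line for the mean and bars for ± SD (n = 2), on axes that start at 0. Zbtb16 at 13.0 and 13.9 CPM in AAV-XBP1S stands furthest from its other libraries. Fkbp5 has 3 separate groups, and so has Tsc22d3, where AAV-ATF6N (up to 171.2 CPM) lies just under AAV-GFP (from 171.5 CPM).

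As a set, 5 of the 7 genes in AAV-XBP1S against AAV-GFP did not overlap between groups (Zbtb16, Fkbp5, Tsc22d3 and Per1 lower, Nr3c1 higher), against 35.9% of all tested genes (19.1% higher, 16.8% lower). The choice of the set used this comparison, so nothing is read from that count. The median log2 fold change of the 7 was -0.51, beside -0.01 over all genes tested. In AAV-ATF6N against AAV-GFP none of the 6 genes other than Zbtb16 was past an adjusted p of 0.05 (edgeR's quasi-likelihood test, Benjamini-Hochberg over all genes). Of all genes 0.514% were (0.35% higher, 0.165% lower). At an unadjusted p under 0.05 in edgeR stood 1 of the 6, against 1963 of 14587 genes, and DESeq2 called none. There 3 of 7 did not overlap (Fkbp5 and Nr3c2 higher, Tsc22d3 lower), against 54.5% of all genes (27.9% higher, 26.7% lower), and the median was 0.03 beside -0.02. In AAV-ATF6N against AAV-XBP1S all 7 were without overlap, against 56.9% of all genes (30.2% higher, 26.8% lower). Of these, 5 were higher in AAV-ATF6N and 2, Sgk1 and Nr3c1, lower. The choice of the set also used this comparison.

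**Figure D3:**
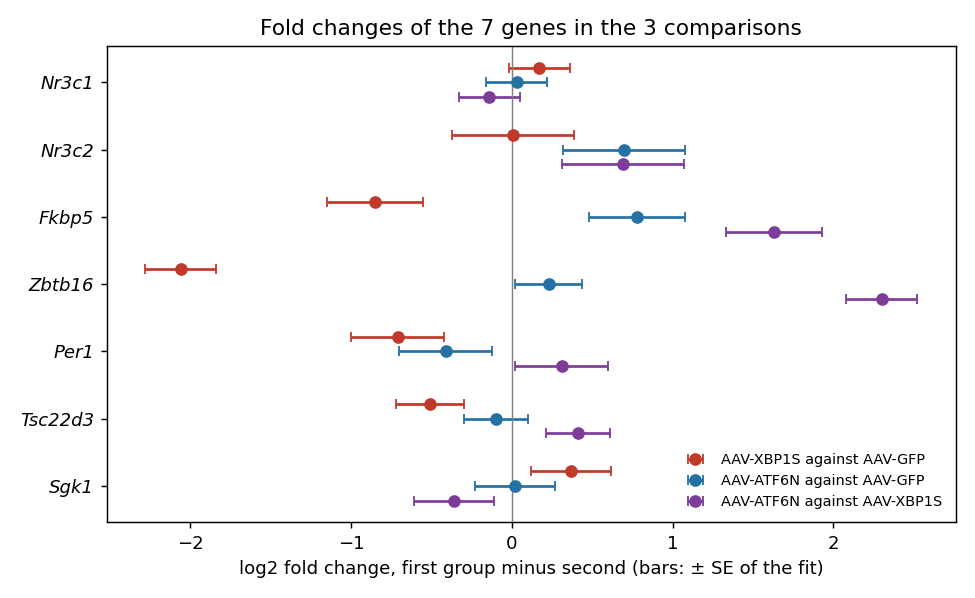
Log2 fold change of each gene, first named group minus second, in the 3 comparisons, with bars for ± SE of the fit to all 6 libraries. Zbtb16 lies at -2.06 in AAV-XBP1S against AAV-GFP, and Fkbp5 at -0.85 there and at 0.78 in AAV-ATF6N against AAV-GFP.

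Levels can be compared between genes only per length, here as RPKM, the CPM divided by the length of the exons in kilobases. In AAV-GFP the order was Tsc22d3 (71.4 ± 3.49 RPKM), Sgk1 (24.4 ± 5.83), Nr3c1 (12.3 ± 0.807), Zbtb16 (11.0 ± 1.43), Per1 (4.66 ± 1.53), Fkbp5 (3.50 ± 0.937) and Nr3c2 (2.37 ± 1.11), each n = 2. The libraries of Nr3c1 and Zbtb16 overlapped, and so did those of Per1 and Fkbp5 and those of Fkbp5 and Nr3c2. In AAV-XBP1S Zbtb16 stood at 2.63 ± 0.123 RPKM, between Per1 (2.84 ± 0.541) and Nr3c2 (2.38 ± 0.717), with overlapping libraries. In AAV-ATF6N Zbtb16 (12.9 ± 1.96) and Nr3c1 (12.5 ± 0.404) overlapped, and Fkbp5 (6.01 ± 0.329) stood above Nr3c2 (3.85 ± 0.166) and Per1 (3.52 ± 0.166), which lay apart from each other by little.

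The genes most like Zbtb16 over the 6 libraries, by Pearson correlation of log2(CPM + 1) among 9020 genes with a mean of at least 5 CPM, were Rhobtb1 (0.9936), Ddit4 (0.9921), Mid1ip1 (0.9912), Shb (0.9904) and Mark2 (0.9895). Rhobtb1 had means of 162, 57.0 and 189 CPM in AAV-GFP, AAV-XBP1S and AAV-ATF6N, and Mid1ip1 185, 102.5 and 208 CPM. For Fkbp5 they included Klhl21 (0.9998), Dyrk1a (0.9992), P4ha1 (0.9950) and Ppargc1a (0.9941). Ppargc1a, a regulator of mitochondrial genes, had means of 207.5, 136 and 325 CPM in the same order. These points share libraries and depth, and with 6 libraries in 3 groups high correlations are a description only.

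Other genes known to be induced by glucocorticoids were mostly lower in AAV-XBP1S, although few passed the test. Of 48 genes on that list 45 were tested, and in AAV-XBP1S against AAV-GFP edgeR called 1 lower and none higher, where 0.315% of all genes were called (0.178% higher, 0.137% lower). There 31 lay below 0 against 14 above. At an unadjusted p under 0.05 in edgeR stood 21 of the 45, against 1689 of 14587 genes. The median log2 fold change was -0.49, beside -0.01 over all genes, and 21 of 45 lay lower and 9 higher without overlap, where 16.8% and 19.1% of all genes did. Summed over the list the libraries held 4610 to 4861 CPM in AAV-GFP, 3230 to 3571 in AAV-XBP1S and 4865 to 4866 in AAV-ATF6N. The gene that fell was Klf15, a transcription factor of amino acid and lipid metabolism in heart and muscle, at 162.5 and 191 CPM in AAV-GFP, 57.1 and 52.1 in AAV-XBP1S, with 129.5 and 136 in AAV-ATF6N. Its log2 fold change was -1.70 (SE 0.20, edgeR adjusted p = 0.0322). The call was lost without AAV-XBP1S replicate 1 or 2 or AAV-ATF6N replicate 1 or 2 (edgeR adjusted p from 0.147 to 0.434), and with only the 4 libraries compared (0.170).

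Next to Klf15 by p-value stood Nfkbia, Ddit4 and Cebpb, which did not pass. Nfkbia, the NF-kB inhibitor, had a log2 fold change of -2.12 (SE 0.29, edgeR adjusted p = 0.0524). Ddit4, an inhibitor of mTORC1 signalling, had 24.1 and 22.4 CPM in AAV-GFP, 9.16 and 8.95 in AAV-XBP1S, with 23.8 and 21.8 in AAV-ATF6N, with -1.36 (SE 0.20, edgeR adjusted p = 0.0628). Cebpb, a transcription factor, had -1.84 (SE 0.27, edgeR adjusted p = 0.0629). With 1 library left out, Nfkbia ran from -2.39 to -1.75, Ddit4 from -1.38 to -1.31 and Cebpb from -2.08 to -1.51. The list's most abundant genes differed less: Tns1 had -0.25 (SE 0.19), Dusp1, a phosphatase that silences MAP kinases, 0.16 (SE 0.19), Trim63, a muscle ubiquitin ligase, -0.61 (SE 0.17) and Tgm2 -0.36 (SE 0.23), none past the test. DESeq2 called 10 of the 45, 9 lower and 1, Anxa1, higher, where it called 484 of all genes.

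In AAV-ATF6N against AAV-GFP the same list had a median of -0.03, beside -0.02 over all genes. At an unadjusted p under 0.05 in edgeR stood 9 of the 45, against 1963 of 14587 genes. There edgeR called 1 of the 45 lower and none higher, where 0.165% and 0.35% of all genes were. The gene that fell was Nfkbia, from 335 and 210 CPM in AAV-GFP to 57.9 and 58.0 CPM (log2 fold change -2.23, SE 0.30, edgeR adjusted p = 0.0401). It no longer passed without AAV-XBP1S replicate 1 or 2 or AAV-ATF6N replicate 1 or 2 (edgeR adjusted p from 0.116 to 0.443), or with only the 4 libraries compared (0.132). Klf15 had -0.42 (SE 0.19), Cdkn1c, a cell cycle inhibitor, -1.73 (SE 0.33), Cebpd -1.37 (SE 0.30) and Nfil3 0.88 (SE 0.21). Their adjusted p-values in edgeR were 0.383, 0.114, 0.159 and 0.190. With 1 library left out, Cdkn1c ran from -2.07 to -1.27, Cebpd from -1.68 to -0.95 and Nfil3 from 0.74 to 1.04. Between the treated groups the median was 0.44 with 33 of 45 above 0, and edgeR called none, where 0.226% of all genes were (0.171% higher, 0.0548% lower). Of the 45, 16 had an unadjusted p under 0.05, against 1932 of 14587 genes, and DESeq2 called 10, against 803 of all genes. The smallest p-values there were those of Cebpb (1.88, SE 0.27), Ddit4 (1.33, SE 0.20), Klf15 (1.28, SE 0.20) and Zfp36 (0.90, SE 0.18). Adjusted, they were 0.0579, 0.0590, 0.0601 and 0.0986 in edgeR. Each of these 4 passed with only the 4 libraries compared (edgeR adjusted p from 0.0126 to 0.0295), where 663 of all genes were called instead of 33. With 1 library left out, Cebpb ran from 1.72 to 2.02, Ddit4 from 1.27 to 1.39, Klf15 from 1.21 to 1.32 and Zfp36 from 0.85 to 0.93.

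Inflammatory genes that glucocorticoids restrain, most of them also targets of NF-kB, were mostly lower in AAV-XBP1S, and stood on both sides of AAV-GFP in AAV-ATF6N. Of 17 tested (of 20), 3 fell and none rose in AAV-XBP1S against AAV-GFP, where 0.137% of all genes fell, with a median of -1.96, beside -0.01. Without overlap, 12 were lower and 2, Nos2 and Mmp3, higher, where 16.8% and 19.1% of all genes were. At an unadjusted p under 0.05 in edgeR stood 11 of the 17, against 1689 of 14587 genes. DESeq2 called 8 of the 17, all lower, where it called 484 of all genes. The list summed to 418 to 556 CPM in AAV-GFP, 69.6 to 84.1 in AAV-XBP1S and 84.4 to 88.6 in AAV-ATF6N. Most of the sum in AAV-GFP was Icam1, an adhesion molecule for leukocytes, while in AAV-XBP1S Nos2, the inducible nitric oxide synthase, stood highest (27.8 and 38.0 CPM, against 6.04 and 24.0 in AAV-GFP). Icam1 fell in both treated groups, from 323 and 415 CPM in AAV-GFP to 18.8 and 20.3 in AAV-XBP1S (log2 fold change -4.24, SE 0.24, edgeR adjusted p = 0.00355) and 27.3 and 31.8 in AAV-ATF6N (-3.64, SE 0.24, 0.00443). The chemokine genes Cxcl1 (-2.32, SE 0.30, edgeR adjusted p = 0.0435) and Cxcl2 (-3.65, SE 0.35, 0.0162) fell in AAV-XBP1S. Vcam1, another adhesion molecule, had -2.04 (SE 0.30, edgeR adjusted p = 0.0622) in AAV-XBP1S and fell by 2.13 on the log2 scale in AAV-ATF6N (SE 0.30, 0.0480). In AAV-ATF6N 2 of the 17 fell and none rose, where 0.165% of all genes fell and 0.35% rose. The median there was -0.82, beside -0.02, or -1.41 without AAV-ATF6N replicate 1 and -0.55 without replicate 2. Without overlap 10 were lower and 6 higher, where 26.7% and 27.9% of all genes were. The higher ones were Il6, Ccl2, Ccl7, Ptgs2, Mmp3 and Lif. Of these DESeq2 called Ptgs2 (2.82, SE 0.73) and Ccl7 (1.29, SE 0.33) higher, and edgeR none (adjusted p = 0.222 for both). DESeq2 called 9 of the 17 there, 7 lower and 2 higher, where it called 573 of all genes. At an unadjusted p under 0.05 in edgeR stood 10 of the 17, against 1963 of 14587 genes. Cxcl1 had -1.36 (SE 0.29) and Cxcl10 -3.43 (SE 0.54) there. Their adjusted p-values in edgeR were 0.140 and 0.0616. With 1 library left out, Cxcl1 ran from -1.63 to -1 and Cxcl10 from -4.23 to -2.94.

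Calls on these inflammatory genes rested on few libraries. Icam1 was lost without either library of the treated group compared (edgeR adjusted p from 0.0862 to 0.0913 in AAV-XBP1S, and from 0.0777 to 0.0796 in AAV-ATF6N). Cxcl1 and Cxcl2 in AAV-XBP1S and Vcam1 in AAV-ATF6N were lost without any 1 of the 4 treated libraries (edgeR adjusted p from 0.0610 to 0.510), and with only the 4 libraries compared (0.0851 to 0.162), where Icam1 passed in both (0.0192 and 0.0459). Vcam1 in AAV-XBP1S, which did not pass, ran from -2.36 to -1.6 with 1 library left out. Between the treated groups edgeR called none of the 17. Of these, 8 had an unadjusted p under 0.05, against 1932 of 14587 genes, and DESeq2 called 4, against 803 of all genes. Ccl2, a monocyte chemokine, stood higher in AAV-ATF6N (7.94 and 7.55 against 1.92 and 1.60 CPM), with a log2 fold change of 2.13 (SE 0.30, edgeR adjusted p = 0.0579). It passed with only the 4 libraries compared (edgeR adjusted p = 0.0137), where 663 of all genes were called instead of 33. With 1 library left out it ran from 2.01 to 2.23. Markers of endothelial cells, which also express Icam1 and Vcam1, lay higher in AAV-XBP1S and lower in AAV-ATF6N by the sums given above, and their part in these results was not tested.

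**Figure D4:**
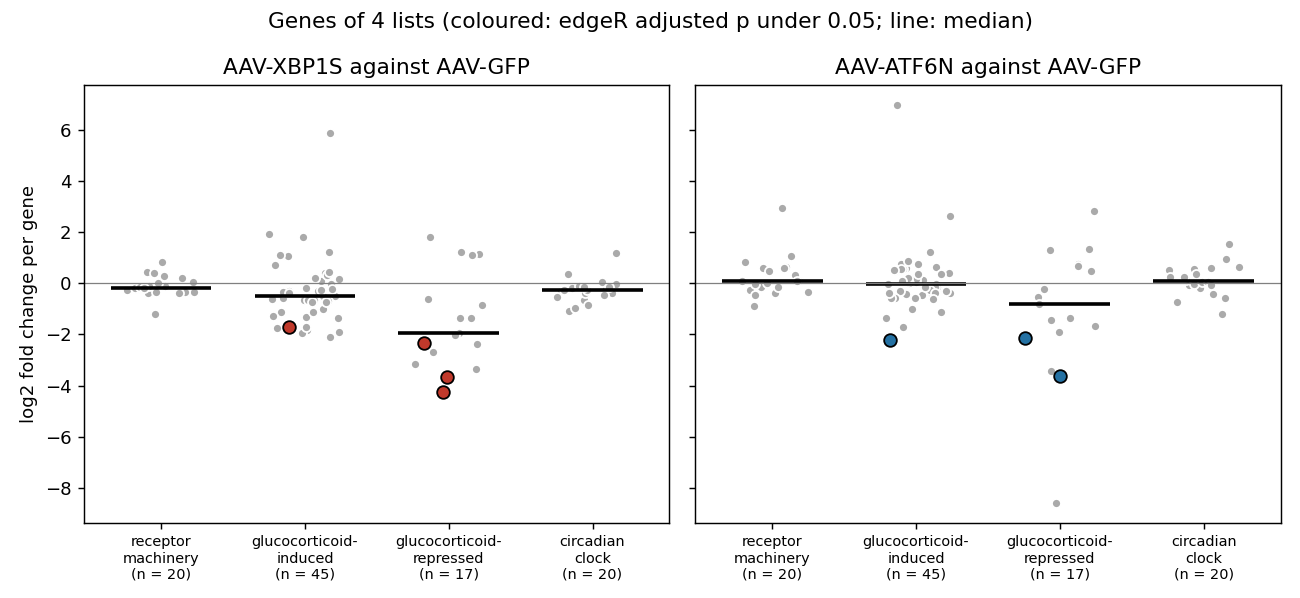
Log2 fold changes over AAV-GFP of the tested genes of 4 lists in AAV-XBP1S and AAV-ATF6N, 1 point per gene, coloured where edgeR's adjusted p is under 0.05, with a line at the median. The glucocorticoid-induced median is -0.49 in AAV-XBP1S and -0.03 in AAV-ATF6N, and the points furthest from 0 in the induced list (Tat) and below in the repressed list of AAV-ATF6N (Mmp9) have a group without counts, so their positions are not measured sizes.

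Genes that make the receptor competent to bind hormone and act held no edgeR call, and 1 of them was called by DESeq2. Of 20 genes for chaperones, hormone-converting enzymes and coregulators, edgeR called none in any comparison. The numbers at an unadjusted p under 0.05 were 1, 2 and 1 in AAV-XBP1S and AAV-ATF6N against AAV-GFP and between the treated groups. DESeq2 called 1, 1 and 0. Of all 14587 genes 1689, 1963 and 1932 had such an unadjusted p, and DESeq2 called 484, 573 and 803 of all genes. The medians were -0.17, 0.08 and 0.12. Stip1, which links HSP70 to HSP90, was the gene DESeq2 called, with 150 and 181 CPM in AAV-GFP, 74.0 and 69.3 in AAV-XBP1S, with 88.1 and 90.6 in AAV-ATF6N. Its log2 fold change was -1.21 (SE 0.20, edgeR adjusted p = 0.0854) and -0.89 (SE 0.19, 0.156), and it passed in AAV-XBP1S without AAV-GFP replicate 1 or 2 (0.0363 to 0.0449) and in AAV-ATF6N without AAV-GFP replicate 2 (0.0370). In AAV-XBP1S, Hsp90ab1 had -0.40 (SE 0.24), Fkbp4, whose protein competes with FKBP51 for the complex, -0.36 (SE 0.19), and Hsd11b1, which regenerates active hormone, 0.81 (SE 0.37) at 1.40 to 3.23 CPM.

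Relatives and partners of the 7 genes were examined by list as well. Their counts stand beside 1689, 1963 and 1932 of all 14587 genes at an unadjusted p under 0.05. DESeq2 called 484, 573 and 803 of all genes. Of 20 circadian clock genes edgeR called none in any comparison (3, 2 and 3 at an unadjusted p under 0.05, and 2, 1 and 2 by DESeq2). In AAV-XBP1S 17 of them lay below 0, with a median of -0.26 that was 0.10 without AAV-GFP replicate 2. Dbp, a transcription factor driven by the clock, was called by DESeq2 in both treated groups, at 104 and 77.8 CPM in AAV-GFP, 48.2 and 38.5 in AAV-XBP1S (-1.07, SE 0.23, edgeR adjusted p = 0.172) and 40.1 and 39.2 in AAV-ATF6N (-1.20, SE 0.23, 0.119). Usp2, a deubiquitinase with a daily rhythm, had -0.87 (SE 0.21) in AAV-XBP1S and Tef -0.40 (SE 0.30), or 0.11 without AAV-GFP replicate 2. Of 13 genes around SGK and mineralocorticoid action edgeR called none (3 in each comparison at an unadjusted p under 0.05, and 1 in each by DESeq2). Nupr1, a nuclear protein induced by stress, was the gene DESeq2 called against AAV-GFP, at 2.04 and 1.05 CPM in AAV-GFP, 6.66 and 5.27 in AAV-XBP1S (1.94, SE 0.38, edgeR adjusted p = 0.135) and 8.07 and 10.6 in AAV-ATF6N (2.58, SE 0.39, 0.0539). Between the treated groups it was Ndrg1 (-1.02, SE 0.24, edgeR adjusted p = 0.137), while Ndrg2, an SGK1 substrate, had -0.42 (SE 0.17) in AAV-XBP1S. Dbp, Nupr1 and Ndrg1 were named after their values were seen, as were the higher genes of the inflammatory list and Fkbp1b.

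The families of Fkbp5, Tsc22d3 and Zbtb16 held no edgeR call either, and their counts stand beside the same numbers over all genes. Of 12 other FKBP genes 3, 3 and 2 had an unadjusted p under 0.05, and DESeq2 called 1, 0 and 1. The gene DESeq2 called was Fkbp1b, whose protein binds the cardiac ryanodine receptor, at 0.163 and 0.449 CPM in AAV-GFP, 4.37 and 3.74 in AAV-XBP1S, with 0.493 and 0.214 in AAV-ATF6N. Its log2 fold change was 3.75 (SE 0.65, edgeR adjusted p = 0.0943) for AAV-XBP1S and 0.25 (SE 0.63, 0.846) for AAV-ATF6N. The abundant members Fkbp1a and Fkbp3 had -0.10 (SE 0.23) and -0.39 (SE 0.34) in AAV-XBP1S, with signs that turned without 1 library. Of 3 other TSC22 genes none had an unadjusted p under 0.05 and DESeq2 called none, with Tsc22d1 at -0.13 (SE 0.23) and Tsc22d4 at -0.47 (SE 0.22). Of 21 genes on the BTB zinc finger list, which includes the ubiquitin ligase partner Cul3, 2, 4 and 2 had an unadjusted p under 0.05 and DESeq2 called 0, 1 and 2. Zbtb20, the most abundant of them, had 0.38 (SE 0.24) and Zbtb17 -0.68 (SE 0.22) in AAV-XBP1S.

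Immediate early genes respond within minutes to growth factors and stress, and Per1 and Sgk1 can respond in the same way. Of 20 tested 3 rose in AAV-ATF6N over AAV-GFP and none fell, where 0.35% of all genes rose and 0.165% fell. Fos went from 114.5 and 99.2 to 348 and 347 CPM (log2 fold change 1.70, SE 0.19, edgeR adjusted p = 0.0277). The others were Egr1 (1.92, SE 0.25, 0.0401) and Atf3 (1.34, SE 0.19, 0.0480). Each was lost without any 1 of the 4 treated libraries, and Atf3 also without AAV-GFP replicate 1 (edgeR adjusted p from 0.0562 to 0.593), and each with only the 4 libraries compared (0.103 to 0.158). In AAV-XBP1S edgeR called none of the 20. Of these, 11 had an unadjusted p under 0.05, against 1689 of 14587 genes, and DESeq2 called 4, against 484 of all genes. Myc was higher in AAV-ATF6N than in AAV-XBP1S (2.28, SE 0.28, edgeR adjusted p = 0.0479), where edgeR called 0.171% of all genes higher. That call was lost without any 1 of the 4 treated libraries. The list summed to 1648 to 2023 CPM in AAV-GFP, 1880.4 to 2034 in AAV-XBP1S and 2549 to 2571 in AAV-ATF6N, and its part in the values of Per1 and Sgk1 was not tested.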

How the data were processed

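The 6 libraries of polyA RNA from sorted cardiomyocytes were made with SMART-Seq v4 and Nextera XT kits, per the labels' protocols. These kits do not mark strand. The authors deposited a table of raw read counts per gene, for which the submitters' processing notes name STAR, featureCounts and mm10, with versions, annotation and strand setting not given in the sources used here. Per the file headers, the authors' deposited tables against AAV-GFP hold a mean normalized signal, log2 fold changes with standard errors, a test statistic (a score) and p-values. Only their log2 fold changes are quoted.

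Genes were kept by filterByExpr (count minimum 10), and edgeR 4.0.16 (R 4.3.3; TMM, quasi-likelihood, group as the only term, all 6 libraries, 3 residual degrees of freedom) was tested two-sided with Benjamini-Hochberg adjustment over 14587 genes at 0.05. With 3 counts worth 0.0305 to 0.0459 CPM per library, depth did not limit the 7 genes. In simulated data the test recovered 91% and 78% of 4-fold changes in AAV-XBP1S and AAV-ATF6N against AAV-GFP, with 9 and 8 false calls. There all genes shared a single spread and no library stood apart, unlike in these data, so those rates may not hold here. The 7 genes and all lists were chosen with earlier results of these data known. Named genes were the 7, genes past the threshold, the 4 most abundant of a list and, for the hormone lists, the 4 of smallest p, and a few that this rule names are not reported here. Alternatives were other size factors, DESeq2 1.42.0, no filter, only the groups compared, a replicate block and leaving out each library. Columns of per-sample values left out numbered 0.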

Additional observations from a re-analysis of the deposited data

How the results depend on the processing

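The number of called genes among the receptor, induced and repressed lists (82 tested) was 4 in AAV-XBP1S against AAV-GFP, 3 in AAV-ATF6N against AAV-GFP and 0 between the treated groups, and it changed with most settings. The causes were not tested. With DESeq2 it was 19, 15 and 14, without a filter on low counts 14, 10 and 12, and with only the 4 libraries compared 1, 1 and 16. Leaving out 1 library gave 0 to 16, 0 to 25 and 0 to 17. With DESeq2's size factors in edgeR it was 4, 3 and 0. With the replicate number as a block it was 13, 5 and 9. Over all genes edgeR called 46, 75 and 33, DESeq2 484, 573 and 803, edgeR without a filter 233, 348 and 458, with only the 4 libraries 13, 8 and 663, and with the block 165, 237 and 356. With 1 library left out these were 2 to 322, 6 to 3055 and 1 to 717. The labels tie no number to an animal or batch, so the numbers were not taken as pairs. The replicate differences correlated at 0.801 between AAV-GFP and AAV-XBP1S over 9541 genes, and those of AAV-ATF6N at -0.207 and -0.252 with them. With the block, Nfkbia, Ddit4, Cebpb, Vcam1 and Stip1 passed in AAV-XBP1S against AAV-GFP (edgeR adjusted p = 0.00484, 0.0277, 0.0124, 0.0117 and 0.0412), Cdkn1c and Cxcl10 in AAV-ATF6N (0.0221 and 0.00919), and Ccl2, Cebpb, Ddit4 and Klf15 between the treated groups (0.0112 to 0.0258). Zbtb16 kept its sign under all 11 alternatives in each comparison, and the other 6 genes did so except Nr3c1, Sgk1 and, in AAV-XBP1S, Nr3c2 (-0.41 to 0.63). The choice of the set used the levels of Zbtb16, so nothing is read from its signs. In AAV-ATF6N, Sgk1 ran from -0.21 without AAV-GFP replicate 1 to 0.30 without replicate 2, and Nr3c1 from -0.03 without AAV-GFP replicate 2 (-0.01 without AAV-ATF6N replicate 1) to 0.09. In AAV-XBP1S, signs also turned for Tef (-0.76 to 0.11, the latter without AAV-GFP replicate 2), Fkbp1a (-0.29 to 0.16, the latter without AAV-GFP replicate 1, and 0.01 without AAV-XBP1S replicate 2), Fkbp3 (-0.78 to 0.21, the latter without AAV-GFP replicate 1) and Tsc22d1 (-0.37 to 0.12, the latter without AAV-XBP1S replicate 2). Where a group keeps 1 library, that library is assumed to vary like the others.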
